A study of Mus musculus with 2 samples.

Results

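Natural killer (NK) and innate lymphoid cells were studied in 2 single-cell RNA libraries from mouse submandibular gland, 1 from a p63 KO mouse and 1 from a p63 wild-type (WT) mouse. They were chosen as cells with at least 1 UMI (unique molecular identifier, 1 counted RNA molecule) of 3 or more of 10 genes, which were Nkg7, Gzma, Gzmb, Klrb1c, Klrk1, Klre1, Xcl1, Txk, Eomes and Ctla2a. Cells with 3 or more UMIs of the complement genes C1qa, C1qb and C1qc, which mark macrophages, were left out. The rule found 120 of the 4086 cells that passed the quality filter. Of these, 71 were in the KO library and 49 in the WT library.

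Both groups were labelled as adult salivary gland at 12 weeks of age, with the genotypes p63 KO and p63 wild type. The whole gland was dissociated and run on the 10x Genomics droplet platform with the version 2 chemistry, which counts the 3' ends of transcripts. How p63 was removed, in which cells, on which strain background and from how many animals is not stated in the labels. A source field names the material as epithelial progenitor cells, whereas the immune cells described here came from the same whole-gland libraries. With 1 library per genotype, no difference between KO and WT has a replicate check, and intervals given below are exact 95% intervals that cover counting error only.

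NK cells and the other innate lymphoid cells are lymphocytes without rearranged antigen receptors. NK cells kill target cells by releasing granzymes and perforin from granules, and they read targets through activating and inhibitory lectin-like receptors, many of which signal through the adaptor proteins Tyrobp and Fcer1g. The salivary gland of the mouse is known for resident innate lymphoid cells that share features of NK cells and of group 1 innate lymphoid cells. Group 2 cells are defined by the regulator Gata3, and T cells by the CD3 chains of the T cell receptor complex.

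The KO library held 4726 barcodes and 11828669 UMIs, of which 2423 cells (51.3%) passed the filter, and the WT library held 1970 barcodes and 8811082 UMIs, of which 1663 cells (84.4%) passed. The filter of under 20% mitochondrial UMIs removed 40.7% of KO barcodes and 12.4% of WT barcodes. The smallest deposited barcode had 1076 UMIs in the KO library and 2175 in the WT library, so that shallow cells are present from the KO gland only. Trp63, the gene that encodes p63, had 20 UMIs in 19 of 2423 kept KO cells (0.784%) and 149 UMIs in 121 of 1663 kept WT cells (7.28%). The libraries shared 11 barcodes, and no NK or innate lymphoid cell carried a shared one.

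NK and innate lymphoid cells made up 2.93% of kept KO cells (71 of 2423, 2.30 to 3.68%) and 2.95% of kept WT cells (49 of 1663, 2.19 to 3.88%). Each share lay within the other's interval with this filter, but the order depended on the processing. Without the filter the shares were 1.54% in KO (1.21 to 1.94%) and 2.59% in WT (1.93 to 3.39%), and with cells thinned to 1000 UMIs before the rule they were 2.60% in KO and 1.80% in WT. The 71 KO cells were shallower, with a median of 1375 UMIs (1092 to 5641) and 643 genes per cell, against a median of 2834 UMIs (2177 to 30268) and 1028 genes in the 49 WT cells. Mitochondrial genes took a median of 5.02% of UMIs in the KO cells and 4.12% in the WT cells, and ribosomal protein genes took 30.8% of summed UMIs in the KO cells and 21.5% in the WT cells. Because depth differed, shares of cells with a UMI are also given after each cell was thinned to 1000 UMIs, a depth that all 120 cells reached.

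A KO cell carried a median of 4 of the 10 genes and at most 6, whereas a WT cell carried a median of 5 and at most 10. At least 4 were present in 54 of 71 KO cells and 44 of 49 WT cells, and at least 7 in 0 of 71 KO cells and 8 of 49 WT cells. The 17 KO cells just inside the threshold, with 3 genes, had mainly Ctla2a (15 cells) and Txk (14 cells), and 13 of them had Fcer1g, 8 had Tyrobp and 8 had Ptprc. The 14 KO cells just outside it, with 2 genes, had Ctla2a in 12 cells but Fcer1g in 4, Tyrobp in 5 and Ptprc in 5. In the WT library the 5 cells with 3 genes all had Tyrobp, Fcer1g and Klrd1, while the 11 cells with 2 genes had the epithelial genes Krt8 in 8 cells and Epcam in 7.

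**Figure D1:**
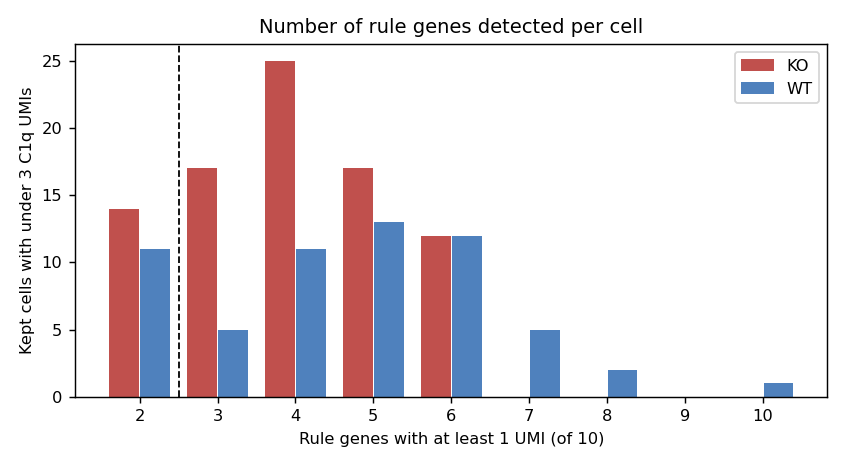
Number of the 10 rule genes detected per cell (x axis) against the number of kept cells with under 3 C1q UMIs (y axis), for KO and WT, from 2 genes upwards, with the dashed line at the threshold. Among cells that met the rule, KO cells are most frequent at 4 genes (25 cells) and end at 6, and WT cells are most frequent at 5 genes (13 cells) and reach 10.

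The rule genes chose the cells, so their levels describe the population and support nothing by themselves. Ctla2a, which encodes an inhibitor of cysteine proteases, had the widest detection in KO cells, with 527 UMIs in 68 of 71 KO cells and 219 UMIs in 40 of 49 WT cells. It was also present in 53.3% of KO and 43.1% of WT endothelial cells. These were kept cells not chosen here, with 3 or more of 9 endothelial genes and neither Ptprc nor C1q. Reads of the near-identical neighbour Ctla2b may also be shared with Ctla2a, so on both counts Ctla2a separates lymphoid cells least well of the 10. Txk, a kinase of the Tec family, had 108 UMIs in 54 KO cells and 67 UMIs in 34 WT cells. Xcl1, a chemokine that attracts cross-presenting dendritic cells, had 108 UMIs in 49 KO cells and 262 UMIs in 40 WT cells. Xcl1 and Txk were both found in 38 of 71 KO cells and 28 of 49 WT cells, and Xcl1, Txk and Ctla2a in 36 KO cells and 20 WT cells. Each cell had 3 or more of the 10 genes by the rule, so joint detection is in part set by it.

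The killing genes of the rule were spread unevenly. Nkg7, a membrane protein of cytotoxic granules, had 69 UMIs in 41 of 71 KO cells (57.7%) and 123 UMIs in 43 of 49 WT cells (87.8%), and after thinning it was found in 53.5% of KO cells and 46.9% of WT cells. The order of the 2 libraries in its share thus turned with depth. Gzmb, a granzyme that cleaves caspases, had 59 UMIs in 21 KO cells and 57 UMIs in 23 WT cells, and thinned shares were 29.6% in KO and 28.6% in WT. Gzma, another granule protease, was confined to fewer cells, with 33 UMIs in 11 KO cells and 118 UMIs in 8 WT cells, of which 73 (61.9%) lay in 1 WT cell. Both granzymes together were found in 3 KO cells and 6 WT cells, so most cells with Gzmb had no UMI of Gzma at this depth.

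The receptors of the rule were sparser. Klrk1, which encodes the activating receptor NKG2D, had 64 UMIs in 37 KO cells and 37 UMIs in 24 WT cells. Klre1, a lectin-like receptor, had 10 UMIs in 9 KO cells and 33 UMIs in 22 WT cells, and thinned shares were 8.45% in KO and 22.4% in WT. Klrb1c, which encodes the NK marker recognised by the NK1.1 antibody, had 7 UMIs in 7 KO cells and 18 UMIs in 15 WT cells, and thinned shares were 7.04% in KO and 14.3% in WT. Eomes, a T-box transcription factor of NK cells, had 11 UMIs in 11 KO cells (15.5%) and 10 UMIs in 8 WT cells (16.3%). Klrb1c and Eomes shared 1 KO cell and 3 WT cells. Epithelial cells (kept cells not chosen here, with 3 or more of 8 epithelial genes and neither Ptprc nor C1q) should lack these genes. In them every rule gene but Ctla2a had a UMI in at most 0.204% of KO and 1.01% of WT cells. These low shares are in part set by the rule, which took cells with 3 or more rule genes out of the group first. Of the cells chosen, 5 in KO and 17 in WT had 3 or more epithelial genes.

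The upstream sequences of 3 rule genes are shown because the transcription factor Runx3 was among the genes highest in these cells (below), and Runx factors bind DNA with the core TGTGGT. The 250 bases before each RefSeq start site (mouse build GRCm38.p6) were searched on both strands for TGTGGT. Of all 27025 genes with such a window, 15.9% held it, and of the 10 rule genes 8 did (all but Ctla2a and Eomes). A match is a string of letters and not a binding site. Capitals mark the match, written ACCACA where it lies on the opposite strand. The Nkg7 window is chr7:43436888-43437137 on the plus strand, with the match 83 bases before the start. The Xcl1 window is chr1:164935523-164935772 on the minus strand, with the match 227 bases before the start. The Gzmb window is chr14:56262335-56262584 on the minus strand, with matches 93 and 34 bases before the start.
Nkg7: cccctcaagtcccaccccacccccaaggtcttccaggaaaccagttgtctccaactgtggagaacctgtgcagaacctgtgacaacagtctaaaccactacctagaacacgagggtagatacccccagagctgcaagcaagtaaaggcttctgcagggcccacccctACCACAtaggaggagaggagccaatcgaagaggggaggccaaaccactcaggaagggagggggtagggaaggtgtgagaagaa
Xcl1: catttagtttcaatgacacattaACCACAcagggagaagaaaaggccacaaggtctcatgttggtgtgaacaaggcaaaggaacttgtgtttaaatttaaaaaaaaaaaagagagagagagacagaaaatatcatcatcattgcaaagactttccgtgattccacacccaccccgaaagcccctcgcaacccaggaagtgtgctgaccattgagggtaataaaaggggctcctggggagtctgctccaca
Gzmb: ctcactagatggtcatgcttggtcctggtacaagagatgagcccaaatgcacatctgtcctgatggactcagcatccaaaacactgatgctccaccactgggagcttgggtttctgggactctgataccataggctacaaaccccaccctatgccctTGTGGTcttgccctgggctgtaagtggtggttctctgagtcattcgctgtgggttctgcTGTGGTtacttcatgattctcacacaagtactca

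Each of the other short motifs searched was in fewer of the 10 windows, though some also exceeded their share among all genes. The T-box letters GGTGTGA were in 2 of the 10 (Nkg7 and Xcl1) and in 3.84% of all genes, and the overlapping AGGTGTNA was in Nkg7 alone and in 3.12% of all genes. The ETS letters AGGAAG were in 6 of the 10 and in 32.3% of all genes, and TATAAA was in Ctla2a alone and in 14.3% of all genes.

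Genes outside the rule bore on the label. Of 12 NK-defining genes listed, 11 had at least 1 UMI, and at least 1 of the 12 was found in 57 of 71 KO cells and 47 of 49 WT cells. Klrd1, the CD94 chain that pairs with the NKG2 receptors, had 29 UMIs in 25 KO cells (35.2%, 24.2 to 47.5%) and 55 UMIs in 31 WT cells (63.3%, 48.3 to 76.6%), and thinned shares were 26.8% in KO and 22.4% in WT. Among epithelial cells, from which cells chosen by the rule had been taken out, it was found in 0 of 1470 in KO and 0.184% in WT. Klra8, a Ly49 receptor, had 40 UMIs in 24 KO cells and 43 UMIs in 20 WT cells. The related Klra9 had 23 UMIs in 16 KO cells and 31 in 19 WT cells, and Klra4 had 14 in 12 KO cells and 31 in 16 WT cells. Ly49 genes are near-identical copies, so the split between them is uncertain.

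Several of the NK-defining genes were at or near 0. Prf1, which encodes perforin, had 0 UMIs in KO cells and 1 in WT cells. Itgam, an integrin of mature NK cells, had 0 in KO cells and 3 in WT cells, and S1pr5, a receptor used to leave tissues, had 0 in both. Ncr1, which encodes the receptor NKp46, had 1 UMI in 1 KO cell and 3 UMIs in 3 WT cells. A count of 0 in 71 KO cells allows a share of cells with a UMI of up to 5.06%, and in 49 WT cells of up to 7.25%. Tbx21, the T-box factor T-bet, had 8 UMIs in 8 KO cells and 10 UMIs in 6 WT cells.

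The adaptors of NK receptors were widely detected. Fcer1g had 122 UMIs in 53 of 71 KO cells (74.6%) and 206 UMIs in 47 of 49 WT cells (95.9%), and after thinning was found in 66.2% of KO cells and 65.3% of WT cells. Tyrobp had 55 UMIs in 34 KO cells (47.9%) and 218 UMIs in 48 WT cells (98.0%), and thinned shares were 36.6% in KO and 67.3% in WT. Both are also expressed by macrophages. In cells with 3 or more C1q UMIs, Tyrobp was found in 83.5% of KO and 90.5% of WT cells.

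**Figure D2:**
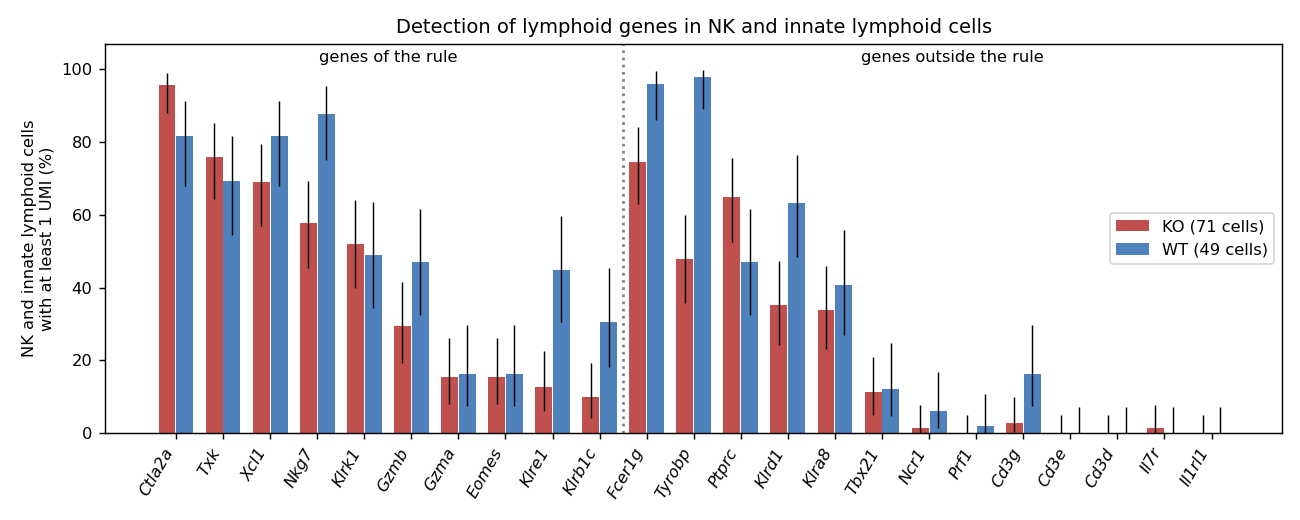
Share of NK and innate lymphoid cells with at least 1 UMI (y axis, percent) for the 10 rule genes, left of the dotted line, and for 13 lymphoid genes outside the rule, in KO (71 cells) and WT (49 cells). Lines are exact 95% intervals of counting error at each cell's own depth, and Cd3e and Cd3d are at 0 in both libraries.

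T cell genes were sparse, and some were detected. Of 12 such genes measured, 6 had a UMI, with 18 UMIs summed over 15 of 71 KO cells and 29 UMIs over 13 of 49 WT cells, and 1 KO cell and 3 WT cells had 2 of the genes. Cd3e, a chain of the T cell receptor complex, had 0 UMIs in the 71 KO cells and 0 in the 49 WT cells, with the limits given above for a count of 0, and Cd3d, Cd4, Cd8a, Cd5 and Bcl11b were also at 0 in both. Cd3e had a UMI in 1 of all 2423 kept KO cells and 2 of all 1663 kept WT cells, so it was rarely detected in either library. Cd28, a costimulatory receptor, had 5 UMIs in 5 KO cells and 2 in 2 WT cells, and Lat, an adaptor also present in NK cells, had 6 UMIs in 6 KO cells and 5 in 5 WT cells. Cd3g had 3 UMIs in 2 KO cells (2.82%, 0.343 to 9.81%) and 21 UMIs in 8 WT cells (16.3%, 7.32 to 29.7%). These 8 WT cells were 8 of the 12 kept WT cells with a Cd3g UMI, and after thinning 2 KO cells and 4 WT cells had one. No comparison of Cd3e-positive with Cd3e-negative cells could be made. Constant-region genes of the T cell receptor were not analysed here.

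Genes of the other innate lymphoid groups differed in how far they were detected. Of 11 group 2 genes 7 had a UMI, with 16 UMIs over 12 KO cells and 29 UMIs over 15 WT cells. Il1rl1, Klrg1, Il17rb and Il5 had none, and Gata3 had 3 UMIs in KO cells and 3 in WT cells. Of group 3 genes, Il23r, Il22 and Il17a had no UMI. Il7r, the interleukin 7 receptor carried by most helper-like innate lymphoid cells, had 2 UMIs in 1 KO cell and 0 in WT cells. Of 9 group 1 genes 8 had a UMI, with 149 UMIs over 57 KO cells and 460 UMIs over 45 WT cells. Most of this was Xcl1, a rule gene. The other 8 genes had 41 UMIs over 21 KO cells and 198 UMIs over 29 WT cells. Summed, the 9 genes stood at 1340 CPM (defined below) in KO cells against 1364 CPM in all other kept KO cells. In WT they stood at 2135 against 937 CPM. Both sums hold Xcl1, which helped to choose the cells, so they are in part set by the rule. Of the other 8 genes, 2 had enough UMIs for the size rule (below) in both libraries, and 0 were higher in both. Of the 9 genes, 2 were lower than in other cells in KO and 0 in WT. Group 3 genes stood at 36.0 against 55.3 CPM in KO and 23.2 against 21.1 CPM in WT. Group 2 genes stood at 144 against 91.7 CPM in KO and 135 against 58.8 CPM in WT. Detection alone thus assigns no group. Inpp4b had 8 UMIs in KO and 8 in WT cells, Cxcr6 had 4 in KO and 2 in WT cells, Itga1 had 2 in KO and 1 in WT cells, and Zfp683 was at 0 in both. Tmem176b, a membrane protein shared with group 3 and myeloid cells, had 20 UMIs in 8 KO cells and 109 UMIs in 17 WT cells, and the neighbouring Tmem176a had 4 UMIs in 2 KO cells and 74 UMIs in 17 WT cells.

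Markers of other cell types were present in some of these cells and more often in the deeper WT cells. The 8 epithelial genes were represented by at least 1 gene in 36 of 71 KO cells and 33 of 49 WT cells, and by at least 2 in 13 KO cells and 22 WT cells. At least 1 of 11 macrophage or dendritic cell genes was found in 7 KO cells and 27 WT cells, taking at most 0.229% of a KO cell's UMIs and 2.04% of a WT cell's. The 11 include C1qa, C1qb and C1qc, which the rule held under 3 UMIs, so these values are in part set by it. All 6 fibroblast genes were at 0 in KO cells and 5 WT cells had 1 of them, and B or plasma cell genes were at 0 in KO cells and present in 1 WT cell. At least 2 of 9 endothelial genes were found in 3 KO cells and 1 WT cell.

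Gland secretory and haemoglobin genes took 4.71% of the summed UMIs of the KO cells and 20.4% of those of the WT cells, with medians per cell of 1.05% in KO and 2.10% in WT. In all other kept cells they took 13.8% in KO and 28.5% in WT. A few cells carried most of it. In KO, 1 cell with 4205 UMIs had 68.8% of them from these genes. More than 10000 UMIs were found in 3 WT cells and 0 KO cells, and these 3 held 28.6% of all WT UMIs in the population. Secretory and haemoglobin genes took 77.6%, 5.04% and 71.5% of the UMIs in these 3 cells. Red cell genes took up to 68.4% of UMIs in 1 KO cell and 61.0% in 1 WT cell. Doublets were not called.

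**Figure D3:**
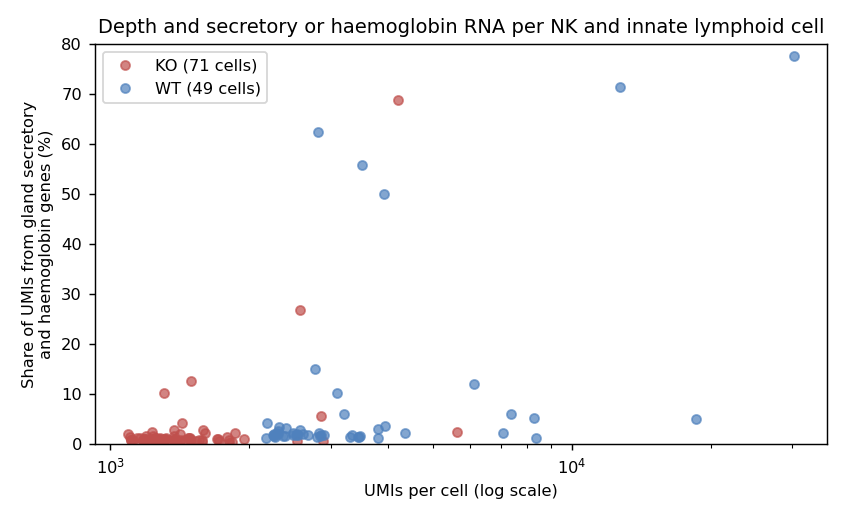
UMIs per NK and innate lymphoid cell (x axis, log scale) against the percent of its UMIs from gland secretory and haemoglobin genes (y axis), 1 point per cell, for KO and WT. Most points lie near the medians of 1.05% in KO and 2.10% in WT, and the 3 cells above 10000 UMIs are all WT.

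Outside the rule genes, the chemokine Ccl5, the cytokine receptor chain Il2rb and the transcription factor Runx3 led the genes that were higher in this population than in all other cells. UMIs summed over these cells and scaled to 1000000 (CPM) were set against those of all other kept cells of the same library, and a gene was counted when it had at least 50 UMIs on both sides together and a ratio whose 95% interval lay wholly beyond 2-fold (the size rule). In the KO library 253 of 8379 genes were higher (3.02%) and 213 lower (2.54%), and in the WT library 127 of 8291 were higher (1.53%) and 34 lower (0.41%). In both libraries 85 of 7571 genes were higher (1.12%), rule genes included. Since the cells were chosen by their expression, these differences describe them and are no test.

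Ccl5, which attracts T cells and monocytes, was the most abundant of these genes. It had 818 UMIs in 68 of 71 KO cells and 690 UMIs in 43 of 49 WT cells. In the KO library it stood at 7358 CPM against 193 CPM in other cells (38.1-fold, 34.9 to 41.7), and in the WT library at 3203 CPM against 103 CPM (31.0-fold, 28.0 to 34.4). Its level varied widely from cell to cell, with a median of 7 and a maximum of 61 UMIs in KO cells and a median of 10 and a maximum of 63 in WT cells. It was also found in 33.5% of KO and 32.6% of WT cells with 3 or more C1q UMIs.

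Il2rb, the receptor chain shared by interleukins 2 and 15, on which NK cells depend, had the largest ratios of the 15 genes named by rank. It had 65 UMIs in 42 KO cells and 52 UMIs in 26 WT cells, 329-fold (176 to 670) above other cells in the KO library and 207-fold (101 to 478) in the WT library. Runx3, a transcription factor of cytotoxic lymphocytes, had 70 UMIs in 38 KO cells and 47 UMIs in 27 WT cells and was 72.1-fold (50.3 to 104) higher than in other cells in KO and 105-fold (58.6 to 199) in WT. Hcst, the adaptor that signals for NKG2D, had 34 UMIs in 24 KO cells and 37 UMIs in 25 WT cells, 42.2-fold higher in KO and 53.0-fold in WT.

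The other 11 genes were of several roles. Tgfb1, a cytokine that shapes tissue-resident lymphocytes, was 38.9-fold higher than in other cells in KO and 20.9-fold in WT. Cd69, a membrane protein that retains lymphocytes in tissue, had 33 UMIs in 19 KO cells and 33 UMIs in 18 WT cells, 27.9-fold higher in KO and 26.3-fold in WT. Rac2, a GTPase of blood cells, Cotl1, an actin-binding protein, and Selplg, a ligand of selectins, were 28.0- to 42.3-fold higher in KO and 18.5- to 35.4-fold in WT. Dusp2, a phosphatase of MAP kinases, was 50.3-fold higher in KO and 64.0-fold in WT, and Nrarp, a target and inhibitor of Notch signalling, 41.6-fold in KO and 37.9-fold in WT. AW112010, Cd52 and the transcription factors Crem and Irf8 were 13.0- to 27.0-fold higher in KO and 14.2- to 25.6-fold in WT.

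**Figure D4:**
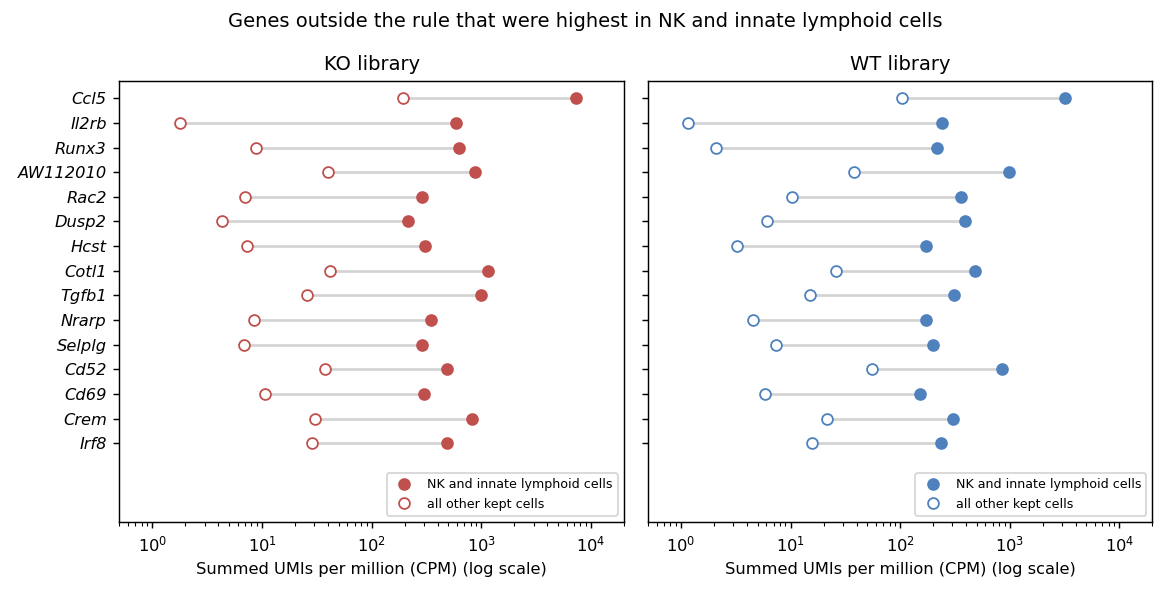
Summed UMIs as CPM (x axis, log scale) of 15 genes outside the rule in NK and innate lymphoid cells (filled points) and in all other kept cells (open points), for the KO library (left) and the WT library (right). Ccl5 reached 7358 in the KO cells and 3203 in the WT cells, and Il2rb had the widest gaps.

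Beside the 1.12% of all genes higher in both libraries, functional lists held the following numbers once the rule genes were taken out of them, each out of the list's genes with enough UMIs for the size rule in both libraries. Of 12 signalling kinases and adaptors 9 were higher in both, among them Ptprc, Rac2, Cd52 and Coro1a, and of 4 activating receptors and adaptors 3, which were Fcer1g, Tyrobp and Hcst. Of 32 immediate early and heat shock genes 5 were higher in both, of 13 major histocompatibility complex (MHC) class I genes 4, of 13 lymphoid transcription factors 3 and of 6 granule and killing genes 1, Srgn. Of 5 adhesion and residence genes 2 were higher in both, of 6 cytokine and chemokine receptors 2, of 5 secreted cytokines and chemokines 2 and of 17 actin cytoskeleton genes 2. None of 15 glucocorticoid and nutrient stress genes, 12 interferon response genes or 5 cell cycle genes was higher in both. The 12 NK-defining genes outside the rule and the 20 inhibitory receptors gave no count, since none of them had enough UMIs for the size rule in both libraries. Many of these genes are shared by white blood cells in general. Id2, the regulator that all innate lymphoid cells need, had 91 UMIs in 47 KO cells and 155 UMIs in 40 WT cells and was 2.88-fold (2.30 to 3.55) above other cells in KO and 2.57-fold (2.17 to 3.03) in WT.

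Between genotypes, the KO cells had more Ifngr1 and less Ccl4 and S100a6 than the WT cells, and these were among 6 genes that stayed past the size rule under all 11 alternative settings that could end a call. The other 3 were Crisp3 and the ribosomal protein genes Rps27 and Rps27rt, all higher in KO cells. Of 716 genes with at least 50 UMIs, 27 were higher in KO cells (3.77%) and 36 lower (5.03%). The median log2 ratio of KO over WT, with 10 CPM added, was 0.20 over these genes. Scaling by trimmed means (TMM) moved that median to -0.09 and the calls to 9 higher and 53 lower, so small differences and the balance of directions depend on the scaling.

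Ifngr1, a chain of the receptor for interferon gamma, had 92 UMIs in 49 of 71 KO cells and 24 UMIs in 19 of 49 WT cells. That is 828 CPM in KO cells and 111 CPM in WT cells, a ratio of 7.43 (4.70 to 12.2) and a log2 ratio of 2.79, and over the alternatives its log2 ratio ran between 2.15 and 3.07. No KO cell held more than 6.52% of its UMIs. Ifngr1 was also higher in KO in all other kept cells, with a log2 ratio of 1.08, and in cells with 3 or more C1q UMIs, with 1.68. A higher level in KO was thus seen outside the lymphoid cells as well.

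Ccl4, a chemokine that NK cells release on activation, had 37 UMIs in 12 of 71 KO cells and 243 UMIs in 28 of 49 WT cells. It was 3.39-fold (2.39 to 4.93) lower in KO cells, at 333 CPM in KO and 1128 CPM in WT, and its log2 ratio of -1.73 ran between -2.50 and -1.56 over the alternatives. Single cells weighed on it, since 51.4% of its KO UMIs and 21.4% of its WT UMIs lay in 1 cell each. In all other kept cells and in cells with C1q its log2 ratio had the opposite sign, 1.93 and 1.41. The related Ccl3 had 6 UMIs in 3 KO cells and 15 UMIs in 10 WT cells, too few for the size rule.

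S100a6, a calcium-binding protein, had 18 UMIs in 14 KO cells and 159 UMIs in 36 WT cells, 4.56-fold (2.79 to 7.89) lower in KO, and its log2 ratio of -2.12 ran between -2.81 and -1.80. Lgals1, a galactose-binding lectin, had 5 UMIs in 5 KO cells and 77 UMIs in 23 WT cells, 7.95-fold (3.26 to 25.2) lower in KO, and passed in 10 of those 11 alternatives. In all other kept cells the log2 ratio of S100a6 was 0.85 and that of Lgals1 -1.22. Of 16 actin cytoskeleton and associated genes, these were the ones called, both lower, and the list's median was -0.63.

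Crisp3, a secreted protein of salivary glands, had 253 UMIs in 56 KO cells and 96 UMIs in 31 WT cells, a ratio of 5.11 (4.02 to 6.53), and passed in all 11 alternatives. Its log2 ratio in all other kept cells was 2.02, close to the 2.33 in the lymphoid cells, and 41.5% of its KO UMIs lay in 1 cell. Ctla2a, a rule gene, stood at 4740 CPM in KO cells and 1016 CPM in WT cells, a ratio of 4.66 (3.98 to 5.48), and passed in 10 of them. Its log2 ratio was 1.45 in all other kept cells. Since Ctla2a helped to choose the cells, its ratio is a description.

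The other 7 of the 10 highest named genes included regulators of lymphocyte signalling. Ptprc, the CD45 phosphatase of all white blood cells, had 66 UMIs in 46 KO cells and 35 UMIs in 23 WT cells, a ratio of 3.65 (2.39 to 5.67), and passed in 5 of the 11 alternatives. Rgs1, which dampens chemokine receptor signals, had 249 UMIs in 59 KO cells and 151 UMIs in 34 WT cells, a ratio of 3.20 (2.60 to 3.94), passed in 9, with a log2 ratio of 1.66 here and 2.58 in all other kept cells. Sh2d2a, an adaptor of T and NK cells, had a ratio of 3.31 (2.09 to 5.34), and the rule gene Klrk1 one of 3.35 (2.20 to 5.17), and each passed in 5. Vps37b, of the endosomal sorting machinery, had 195 UMIs in 60 KO cells and 93 UMIs in 31 WT cells, a ratio of 4.06 (3.16 to 5.26) that passed in 9. Tmem123 had a ratio of 4.26 (2.46 to 7.64) and passed in 8, and Rgcc had one of 4.08 (2.31 to 7.46) and passed in 3.

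The 10 lowest named genes in KO cells were mainly genes of the gland epithelium, and several had most of their WT UMIs in 1 cell. The unnamed gene model 2310057J18Rik, also called lower with a log2 ratio of -5.24, was left out of this ranking. Smgc, a submandibular secretory protein, had 4 UMIs in 4 KO cells and 856 UMIs in 36 WT cells, of which 459 (53.6%) lay in 1 cell. Scgb2b27, Scgb2b26 and Scgb1b27, which are secretoglobins with near-identical copies, together with Mup5 and Car6, had 72.6% to 77.6% of their WT UMIs in 1 cell each. Car6 and Mup5 turned to the opposite direction without the 3 WT cells above 10000 UMIs, with log2 ratios of 0.45 and 0.56. Jchain, of the antibody-secreting cells, had 0 UMIs in KO cells and 158 in 1 WT cell. The basal epithelial genes Krt14 and Ly6d had 0 UMIs in KO cells, against 69 UMIs in 8 WT cells and 61 UMIs in 9 WT cells, at least 11.9-fold and 10.5-fold lower against a limit of 3 counts in the KO cells together. Cd74, a chaperone of MHC class II, had 3 UMIs in 2 KO cells and 120 UMIs in 14 WT cells, 20.6-fold (6.90 to 101) lower in KO. It is itself 1 of the 11 macrophage or dendritic cell genes. That list was found in 7 KO cells and 27 WT cells, counts that include the cells with Cd74. The part of such RNA from other cells in these differences was not tested.

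**Figure D5:**
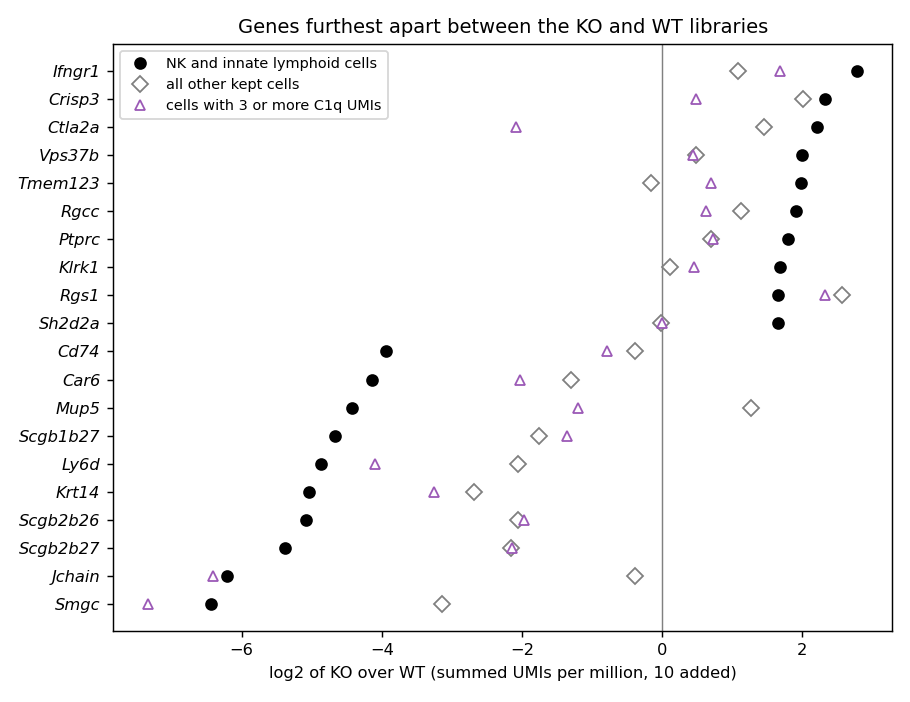
Log2 ratio of KO over WT (x axis, CPM with 10 added) for the 10 highest and 10 lowest named genes in NK and innate lymphoid cells (filled circles), beside all other kept cells (diamonds) and cells with 3 or more C1q UMIs (triangles). Ifngr1 is the highest at 2.79 and Smgc the lowest at -6.44.

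By role, most measured genes of NK function did not pass. The following counts are of genes with at least 50 UMIs and stand beside 3.77% higher and 5.03% lower among all 716 genes, and the medians are of log2 ratios over genes with at least 10 UMIs, beside 0.11 over all 3303 such genes. Rule genes are taken out of the lists. Of 4 granule and killing genes, Srgn, the granule proteoglycan, was higher in KO cells and none lower (median 0.60). Of 4 activating receptors and adaptors, Sh2d2a was higher and none lower (median 0.87), and of 4 inhibitory receptors none passed (median 0.50). Of 7 signalling genes, Ptprc was higher and none lower (median 1.16). Of 3 secreted cytokines and chemokines, Ccl5 and Tgfb1 were higher and Ccl4 lower (median 0.25). The calls of Srgn, Sh2d2a, Ptprc, Ccl5 and Tgfb1 were all lost with TMM scaling, with cells thinned before or after the rule, and without the 3 WT cells above 10000 UMIs. Among cytokine and chemokine receptors, Ifngr1 was higher and Il2rb did not pass.

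Ccl5, though past the size rule with a ratio of 2.30 (2.07 to 2.55), passed in 2 of the 11 alternatives only, and its log2 ratio of 1.20 was 0.78 without the 3 deepest WT cells. Tgfb1 had 110 UMIs in 45 KO cells and 67 UMIs in 33 WT cells, a ratio of 3.18 (2.33 to 4.38), and passed in 5. Of the genes without a call, Klrd1 had a ratio of 1.02 (0.628 to 1.63) and Fcer1g one of 1.15 (0.910 to 1.44), with intervals within 2-fold. After thinning Fcer1g stayed within it at 0.876 (0.622 to 1.24), and Klrd1, at 0.844 (0.432 to 1.67), did not. Nkg7 had a ratio of 1.09 (0.798 to 1.47), but after each cell was thinned to 1000 UMIs its ratio was 0.639 (0.426 to 0.957), turned to lower in KO. That thinned ratio did not pass the size rule either. The thinned share of cells with Nkg7, given above, was higher in KO. Xcl1 was 1.25-fold (0.997 to 1.58) lower in KO at full depth, with 971 CPM in KO cells and 1216 CPM in WT cells, and 1.71-fold (1.24 to 2.36) lower after thinning. Gzmb had a ratio of 2.01 (1.37 to 2.94) and Il2rb one of 2.42 (1.66 to 3.56), and both intervals held 2-fold. Fasl, the death ligand, had 20 UMIs in 19 KO cells and 5 UMIs in 5 WT cells, under the 50 UMIs of the size rule. Gzmc, a granzyme of activated NK cells, had 5 UMIs in 3 KO cells and 43 UMIs in 16 WT cells, likewise under it.

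Tyrobp was 2.05-fold (1.52 to 2.80) lower in KO cells and did not pass, its interval holding 2-fold. After thinning to 1000 UMIs per cell it was 3.19-fold (2.11 to 4.90) lower, with 35 UMIs in KO cells and 77 in WT cells, and passed. Of 28 immediate early and heat shock genes, which are raised by dissociation, Junb, Btg1, Rgs1 and Rgs2 were higher in KO cells and none lower (median 0.42), and of these Rgs1 alone kept its call without the 3 WT cells above 10000 UMIs. None of 7 genes of glucocorticoid and nutrient stress passed (median 0.21), none of 7 MHC class I genes (median 0.84) and none of 4 lymphoid transcription factors (median 0.41). Of 2 interferon response genes with 50 UMIs, Ifi27l2a was lower, with 4 UMIs in 1 KO cell and 61 UMIs in 17 WT cells, 7.87-fold (2.92 to 29.8) lower in KO. It passed in 8 of the 11 alternatives that could end a call. After thinning it had 3 UMIs in KO cells and 4 in WT cells, too few for the size rule. The median of the interferon response list was -1.27 over 7 genes. Cell cycle genes were sparse, with 58 summed UMIs in KO cells and 198 in WT cells over 12 genes, and the proliferation marker Mki67 had 0 UMIs in KO cells and 1 in WT cells.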

How the data were processed

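The authors deposited UMI counts per gene and cell barcode for each of the 2 libraries. Bcl2fastq 2.19.1, Cell Ranger 2.1.0, Seurat 3.1.2 and the mouse build mm10 are listed, with no roles given, per the submitters' processing notes. A barcode was kept when it had 200 genes or more and less than 20% mitochondrial UMIs, and doublets were neither called nor removed. UMIs were summed over cells of a library and divided by their total (CPM). Ratios have exact conditional Poisson intervals, and shares have Clopper-Pearson intervals. No p-value was computed, because cells are not replicates. Thinning drew 1000 UMIs per cell with a fixed seed.

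Named genes were the rule genes, the marker lists, the 10 highest and 10 lowest of KO over WT, the 15 highest over other cells, and of each list the 4 with most UMIs or past the size rule, leaving out ribosomal, mitochondrial and haemoglobin genes. The members and lists were chosen with earlier results of these data known. Python 3.11.15, numpy 2.4.6, scipy 1.17.1 and edgeR 4.0.16 (TMM factors only) were used, and calculations were tested on simulated counts. Promoters came from RefSeq. Cells were assigned a genotype from the libraries' labels. A marker gene of the lists is not reported here.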

Additional observations from a re-analysis of the deposited data

How the results depend on the processing

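No paired analysis was possible because each genotype had 1 library, and for the same reason no replicate could be left out. The share of kept cells that were NK and innate lymphoid cells was 1.54% in KO and 2.59% in WT without the barcode filter, 4.54% in KO and 3.41% in WT when 500 genes and less than 10% mitochondrial UMIs were required, 2.23% in KO and 2.65% in WT with at least 4 rule genes, and 2.60% in KO and 1.80% in WT when cells were thinned before the rule. Without cells that had 2 or more epithelial genes, an alternative chosen after seeing the data, it was 2.39% in KO and 1.62% in WT. The genes higher in KO cells, 27 in the report, numbered 17 with at least 4 rule genes, 6 thinned before the rule, 8 thinned after it, 9 with TMM scaling, 68 with no minimum of UMIs and 51 with a minimum of 20. The genes lower in KO cells, 36 in the report, numbered 14 thinned before the rule, 17 thinned after it, 53 with TMM, 60 with no minimum and 56 with a minimum of 20. Of alternatives added after seeing the data, leaving out cells with 2 or more epithelial genes gave 5 higher and 15 lower, leaving out cells above 10000 UMIs gave 9 higher and 31 lower, and leaving secretory and haemoglobin genes out of the totals gave 10 higher and 49 lower. Without cells above 10000 UMIs, 8 of the 27 higher and 24 of the 36 lower genes were shared with the report's. Mup5 reversed to 0.62 thinned before the rule and 0.56 without cells above 10000 UMIs, and Car6 to 0.61 thinned before the rule, 0.074 without cells that had 2 or more epithelial genes and 0.45 without cells above 10000 UMIs. Their WT UMIs lay mainly in 1 cell. Against other kept cells, thinning after the rule gave 144 higher genes in KO and 49 in WT, and a minimum of 20 UMIs gave 199 in WT. For moves with no value given here the cause was not tested. Leaving out Cd3e-positive cells changed nothing because there were 0, so the comparison of Cd3e-positive with Cd3e-negative cells was not run. Without the barcode filter 1 of 73 KO cells had Cd3e. At 1000 UMIs per cell most receptor genes are at 1 or 0 UMIs in a cell, so a missing UMI does not show a missing transcript. Of the 16 alternatives, 5 could not end a call, since they lowered the minimum, changed the CPM added or left out no cell.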

Other observations

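Barcodes that met the gene rule but failed the quality filter numbered 2 of 2303 in KO and 2 of 307 in WT. Kept cells with 3 or more rule genes and 3 or more C1q UMIs, which the rule left out, numbered 1 in KO and 4 in WT.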
